A study of Mus musculus with 2 samples.

Results

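The 10 genes described here encode the receptors by which platelets attach to vessel walls, plasma proteins and each other: Itga2b, Itgb3, Gp1ba, Gp1bb, Gp5, Gp9, Gp6, Clec1b, Treml1 and Cd9. The rule that picks them lists their names. All 10 were found among the 43346 Ensembl gene rows of the deposited tables, 21461 of which belong to nuclear protein-coding genes, and the 10 annotated transcripts of Itga2b were taken from the transcript tables. The study profiled total RNA of megakaryocyte-erythroid progenitors (MEP) taken from the bone marrow of adult C57BL/6J males, 5 to 6 weeks old, with no other genotype or treatment named. It has 1 group of 2 libraries, replicates 1 and 2. The labels give both libraries the same donor entry, so a spread between them may be technical. No second cell type or control group was compared, so the comparisons are between genes, between transcripts and between the 2 libraries. With 1 group of 2, no p-value is given, since even a sign test over both libraries could not go below 0.5.

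Platelets are shed by megakaryocytes, which arise with red cells from a shared progenitor. Itga2b and Itgb3 encode the chains of the fibrinogen receptor, integrin alphaIIb beta3, and its alpha chain (CD41) appears early in the megakaryocyte lineage. Gp1ba, Gp1bb, Gp5 and Gp9 encode the GPIb-IX-V complex, which holds platelets on von Willebrand factor under flow, while Gp6 (GPVI) binds collagen and Clec1b (CLEC-2) binds podoplanin, both signalling through the kinase Syk. Treml1 encodes an alpha-granule protein brought to the surface on activation, and Cd9 is a tetraspanin abundant on platelets and present on many other cells.

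Promoters of megakaryocyte genes are known for paired GATA and ETS factor sites, so the DNA ahead of 3 members is shown for the reader to see how such letters are laid out. Each line is the 250 bases before the RefSeq start (assembly GRCm38.p6), 5′ to 3′ on the gene's strand. Capitals mark matches on either strand to the GATA hexamer AGATAA, to its forms with another last base (AGATAG), another first base (TGATAA) or both changes (TGATAG), or to the ETS hexamer AGGAAG. The windows are chr11:102469884-102470133 on the minus strand for Itga2b, chr11:70638872-70639121 on the plus strand for Gp1ba and chr16:30310782-30311031 on the minus strand for Gp5.
Itga2b: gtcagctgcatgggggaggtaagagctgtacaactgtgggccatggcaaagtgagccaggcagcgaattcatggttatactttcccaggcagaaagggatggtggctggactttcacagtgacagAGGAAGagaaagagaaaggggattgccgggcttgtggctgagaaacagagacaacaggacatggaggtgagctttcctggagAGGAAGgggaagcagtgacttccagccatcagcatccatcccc
Gp1ba: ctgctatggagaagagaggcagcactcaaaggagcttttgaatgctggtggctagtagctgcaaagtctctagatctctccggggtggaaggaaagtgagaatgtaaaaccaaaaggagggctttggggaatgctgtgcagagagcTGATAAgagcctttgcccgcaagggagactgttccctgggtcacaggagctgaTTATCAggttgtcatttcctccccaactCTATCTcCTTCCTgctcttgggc
Gp5: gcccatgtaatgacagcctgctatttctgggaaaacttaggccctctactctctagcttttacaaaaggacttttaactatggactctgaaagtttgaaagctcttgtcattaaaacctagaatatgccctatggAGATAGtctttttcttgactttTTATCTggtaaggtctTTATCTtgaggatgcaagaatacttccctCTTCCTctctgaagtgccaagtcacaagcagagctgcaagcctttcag

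Gp1ba and Gp5 each hold 3 GATA matches and 1 ETS match in these windows, and Itga2b holds 2 ETS matches. RefSeq promoters were matched for 9 of the 10 genes; Itgb3 was the other. A GATA hexamer lies in the windows of 5 of these 9, Gp1ba, Gp1bb, Gp5, Gp6 and Clec1b, against 26.5% of all 32851 mouse promoter windows of the same length. AGGAAG lies in 5 of 9, Itga2b, Gp1ba, Gp5, Gp9 and Cd9, against 29.5% of all windows. Of these 9, only Gp1ba and Gp5 hold both kinds of match, and Treml1 holds neither. All of these are matches of letters, and binding was not measured here.

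Library totals were 39919884 expected counts in replicate 1 and 48043010 in replicate 2, where an expected count is the estimated number of reads or fragments from a gene. Nuclear protein-coding genes held 25.5% and 20.6% of all TPM (a level scaled for transcript length and library size), and the rest lay in other rows, which lowers every TPM given here. Erythroid genes fitted the label: 12 of 14 reached 1 TPM or more in each library, with Klf1, a red cell transcription factor, at 43.0 and 49.0. Of 13 genes for megakaryocyte and platelet content, 4 did so, and of all nuclear protein-coding genes 39.4%. The T and B cell markers Cd3e, Cd4, Cd8a and Ms4a1 had 0 counts in both libraries, although the other lymphoid genes summed to 12.5 CPM (counts scaled to library size with a TMM factor) in replicate 1 and 54.4 in replicate 2.

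The receptor genes spanned a wide range of levels, from Itga2b at a TPM of 12.7 ± 9.86 (mean ± SD, n = 2) down to Gp6 at 0.06 ± 0.085. In each library 1 TPM or more was reached by Itga2b, Cd9 and Gp5, 3 of the 10, against 39.4% of nuclear protein-coding genes. The median of the 10 was a TPM of 0.898, against 0.20 over all nuclear protein-coding genes. In bulk RNA, fewer cells of a type and less RNA per cell cannot be told apart, so a low level may come from few cells or from little RNA in many.

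**Figure D1:**
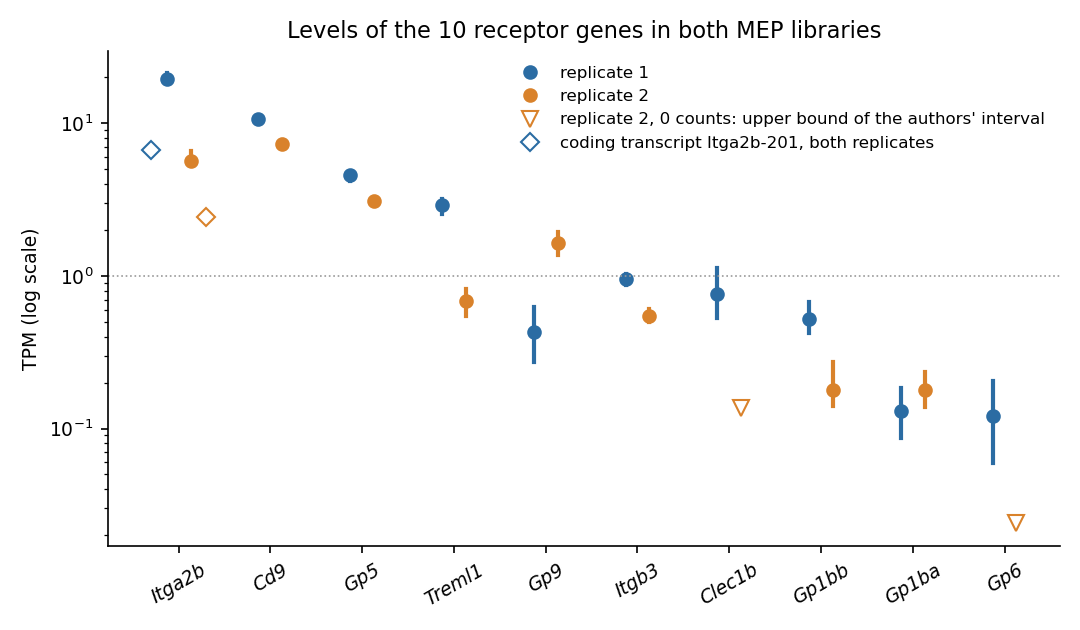
TPM (log axis) of the 10 receptor genes in each MEP library, ordered by mean; points are the deposited values, bars the authors' TPM interval (confidence level not given), and open diamonds the coding transcript of Itga2b alone. Open triangles stand at the upper bound of that interval where replicate 2 had 0 counts (Clec1b and Gp6), and the dotted line is a TPM of 1, which Itga2b, Cd9 and Gp5 exceed in both libraries.

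The integrin alpha chain gene Itga2b (ENSMUSG00000034664.9, chr11:102453297-102470122, minus strand) stood at 19.6 TPM in replicate 1 and 5.70 TPM in replicate 2, from 2525 and 1205 counts. Replicate 1 was the higher, and the authors' intervals of the 2 values, 18.3 to 21.3 and 5.34 to 6.60, did not overlap. Of nuclear protein-coding genes, 85.9% had a lower mean TPM.

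Its partner Itgb3 (ENSMUSG00000020689.4, chr11:104608000-104670476, plus strand), the beta3 chain that also pairs with the alphaV chain, stood at 0.96 TPM in replicate 1 and 0.55 TPM in replicate 2, from 485 and 413 counts. The alpha chain transcript level exceeded that of the beta chain in both libraries, 20.5-fold in replicate 1 and 10.4-fold in replicate 2 (log2 TPM ratio 3.86 ± 0.69, SD, n = 2), and the authors' intervals lay apart in both. Both chains are needed for the receptor to reach the surface, and Itgb3 was the lower in each library. Itgb1, the beta chain shared by many other integrins, stood at 48.2 and 35.4 TPM, which was 50.2-fold and 64.3-fold that of Itgb3. The alphaV gene Itgav stood at 2.77 and 9.06 TPM, 7.09-fold below Itga2b in replicate 1 and 1.59-fold above it in replicate 2. By TPM the order of the beta3 partners thus differed between libraries. By counts, which are not scaled for length, Itgav was below Itga2b in both. The counts were 688 against 2525 in replicate 1 and 734 against 1205 in replicate 2.

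The gene level of Itga2b rests in large part on short rows. Of its 10 annotated transcripts only Itga2b-201 is coding, with 30 exons and 3437 bases. It took 1963 of the gene's counts in replicate 1 and 1055 in replicate 2, which are 77.7% and 87.5%, but 34.1% and 42.8% of its TPM (6.69 and 2.44). The non-coding Itga2b-207, with 3 exons and 623 bases, took 251 and 125 counts, 9.94% and 10.4%, but 35% and 41.2% of the TPM. The difference in share follows from length: the authors' tables divide by an effective length of 3214 bases for Itga2b-201 and 400.1 for Itga2b-207 in replicate 1. By TPM the leading transcript was Itga2b-207 in replicate 1 and Itga2b-201 in replicate 2, while by counts it was Itga2b-201 in both.

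Itga2b-207 lies at the 3′ end of the gene (chr11:102453304-102456190) and shares 433 of its 623 bases with exons of Itga2b-201, so most of its sequence belongs to both. Its first 190 bases lie in the intron between exons 27 and 28 of Itga2b-201 and are its only bases outside those exons. They are shown because they set Itga2b-207, a large share of the gene's TPM, apart from the exons of the coding transcript (GENCODE M21, chr11:102455981-102456190, minus strand), in lower case, followed by the first 20 shared exon bases in capitals.
Itga2b-207: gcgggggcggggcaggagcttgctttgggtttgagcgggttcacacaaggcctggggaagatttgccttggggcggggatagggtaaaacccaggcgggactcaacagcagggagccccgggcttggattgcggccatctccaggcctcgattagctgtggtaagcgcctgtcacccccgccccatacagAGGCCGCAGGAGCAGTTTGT

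Reads from unspliced RNA would also cover those intron bases, and total RNA was sequenced; their part in the value was not tested. Other non-coding transcripts were estimated in 1 library only. Itga2b-204, Itga2b-206 and Itga2b-210 had 117, 68.6 and 125 counts in replicate 1 and 0 in replicate 2. Itga2b-205 had 0 counts in replicate 1 and 25 in replicate 2, where those 25 counts made 16.0% of the gene's TPM. Its first exon lies from position -239 to -60 relative to the start of Itga2b-201, within the promoter window printed above, in which it covers 180 bases. The remaining 4 transcripts had 0 counts in both libraries.

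**Figure D2:**
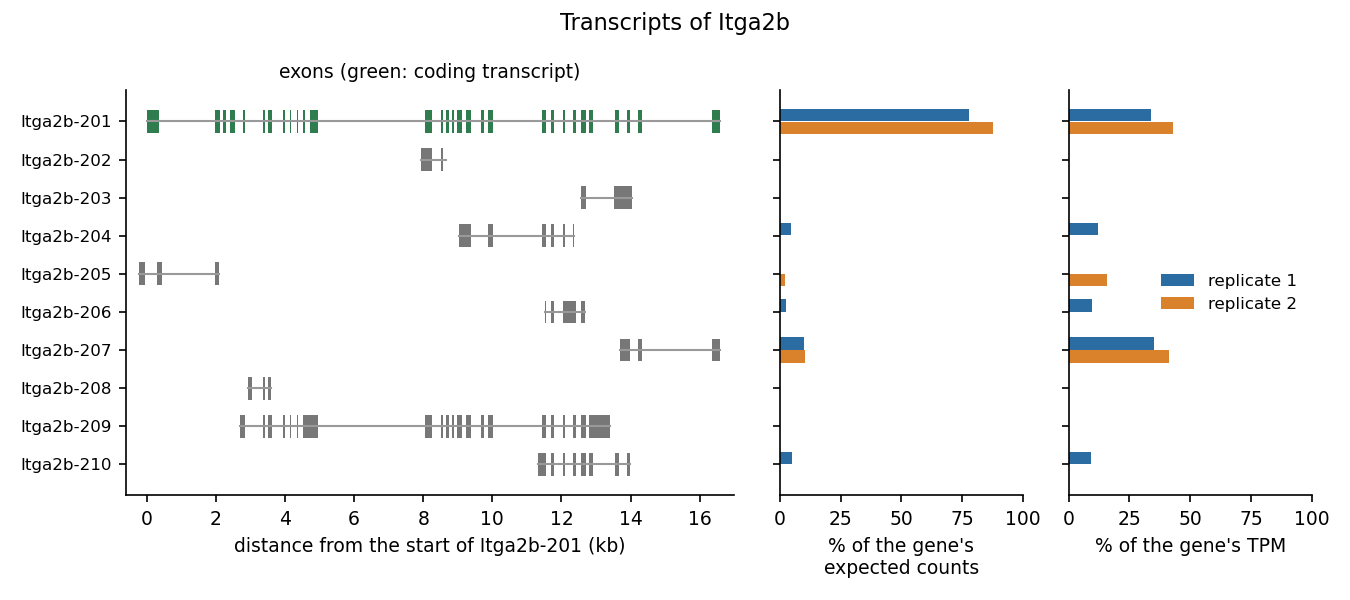
Left, exons of the 10 Itga2b transcripts by distance in kb from the start of the coding transcript Itga2b-201 (green; non-coding in grey); middle and right, each transcript's percent of the gene's expected counts and of its TPM in each library. Itga2b-201 takes 77.7% and 87.5% of the counts but 34.1% and 42.8% of the TPM, and the short Itga2b-207 takes 35% and 41.2% of the TPM.

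Counted by its coding transcript alone, an alternative chosen after seeing the data, Itga2b had a TPM of 4.57 ± 3.01 (SD, n = 2), above 72.6% of nuclear protein-coding genes. It then exceeded Itgb3 6.97-fold in replicate 1 and 4.44-fold in replicate 2, still in the same direction. Its order with Cd9 changed: at the gene level Itga2b was 1.84-fold above Cd9 in replicate 1 and Cd9 1.29-fold above Itga2b in replicate 2, whereas Cd9 was above the coding transcript in both, 1.59-fold and 3.0-fold.

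Within the GPIb-IX-V complex, Gp5 was the most abundant in both libraries and Gp1ba, the chain that carries the binding site for von Willebrand factor, the lowest in replicate 1 and level with Gp1bb in replicate 2. Gp5 (ENSMUSG00000047953.6, chr16:30307685-30310779, minus strand) stood at 4.56 TPM in replicate 1 and 3.11 TPM in replicate 2, from 821 and 825 counts. Gp1ba (ENSMUSG00000050675.7, chr11:70639122-70642036, plus strand) stood at 0.13 and 0.18 TPM, from 27 and 58 counts. Gp5 exceeded Gp1ba 35.1-fold in replicate 1 and 17.3-fold in replicate 2 (log2 TPM ratio 4.62 ± 0.72, SD, n = 2), with the authors' intervals apart in both. The other chains did not keep an order.

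Gp9 (ENSMUSG00000030054.3, chr6:87778072-87779768, plus strand), the small chain needed for surface transport of the complex, stood at 0.43 TPM in replicate 1 and 1.65 TPM in replicate 2, from 23 and 130 counts. Gp1bb (ENSMUSG00000050761.3, chr16:18620317-18622403, minus strand), the chain bound to GPIb alpha through a disulfide bridge, stood at 0.52 and 0.18 TPM, from 77 and 40 counts. Gp9 was high in replicate 2, where it was 9.17-fold above Gp1bb; in replicate 1 the intervals of the pair overlapped. Gp9 exceeded Gp1ba in both libraries, 3.31-fold and 9.17-fold. Gp1bb exceeded Gp1ba 4.00-fold in replicate 1, but both stood at 0.18 in replicate 2.

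Annotation limits the Gp1bb value. In GENCODE M21, 1902 of its 2087 exon bases also belong to exons of Sept5, a septin gene that runs into it on the same strand. The authors counted on GENCODE M4, whose Gp1bb models differ, and the overlap in M4 was not measured. All Gp1bb counts went to Gp1bb-202, with a counted length of 1847 bases. Sept5 itself was assigned 24 counts in replicate 1 and 6 in replicate 2, and Gm49601, which shares 867 bases, was not analysed here. Any split of reads between Gp1bb and Sept5 is an estimate of the authors' quantification. Gp1ba has 2 transcripts that took its counts: Gp1ba-202 took all of them in replicate 1, while Gp1ba-201 took 61.1% of the gene's TPM in replicate 2. Gp5 and Gp9 were each counted on a single transcript.

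The signalling receptors Gp6 and Clec1b were at the edge of detection. Gp6 (ENSMUSG00000078810.3, chr7:4363965-4397744, minus strand) had 10 counts in replicate 1, a TPM of 0.12, and 0 in replicate 2, where 3 counts, taken as the most that a count of 0 allows, would be a TPM of 0.024. Clec1b (ENSMUSG00000030159.11, chr6:129397297-129409335, plus strand) had 27 counts in replicate 1, a TPM of 0.76, and 0 in replicate 2, where the upper bound of the authors' interval was a TPM of 0.136. Both were thus seen in replicate 1 alone. All 27 Clec1b counts went to the 614-base transcript Clec1b-203, and the gene's effective length was 391 bases in replicate 1 and 1401 in replicate 2. In GENCODE M21, Clec1b shares 184 exon bases with its neighbour Clec9a, which had 41 and 31 counts.

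Gp6 needs the Fc receptor gamma chain Fcer1g for surface expression and signalling, and that gene was far more abundant. Fcer1g stood at 3.18 TPM in replicate 1 and 3.09 TPM in replicate 2, 26.5-fold above Gp6 in replicate 1 and at least 128-fold above it in replicate 2, against the level of 3 counts of Gp6 in that library. Clec1b was 6.33-fold above Gp6 in replicate 1, and no order can be given in replicate 2, where both were at 0.

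Treml1 (ENSMUSG00000023993.6, chr17:48359916-48367176, plus strand), the gene of the granule protein TLT-1, stood at 2.90 TPM in replicate 1 and 0.68 TPM in replicate 2, from 271 and 93 counts. Replicate 1 was the higher, and the authors' intervals, 2.53 to 3.21 and 0.542 to 0.815, lay apart. Its counts were all on the transcript Treml1-201.

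Cd9 (ENSMUSG00000030342.8, chr6:125460266-125494791, minus strand) stood at 10.7 TPM in replicate 1 and 7.33 TPM in replicate 2, from 979 and 988 counts, all on the transcript Cd9-201. It was among the steadiest members, and 81.8% of nuclear protein-coding genes had a lower mean TPM. Tetraspanins gather integrins and other proteins into patches of membrane. Against 39.4% of nuclear protein-coding genes, 8 of 9 other tetraspanin genes reached 1 TPM or more in each library. Cd81, at 54.1 ± 12.6 (SD, n = 2), Tspan32, at 24.6 ± 7.35, and Cd82, at 18.2 ± 0.66, were the highest of them and all exceeded Cd9 in mean.

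In the order of mean TPM the genes ran Itga2b, Cd9, Gp5, Treml1, Gp9, Itgb3, Clec1b, Gp1bb, Gp1ba, Gp6. Of the 9 steps between neighbours, 2 had the authors' intervals apart in the same order in both libraries: Cd9 above Gp5, and Gp5 above Treml1. Itga2b with Cd9, Treml1 with Gp9 and Gp9 with Itgb3 had opposite orders in the 2 libraries, with the intervals apart in each. Clec1b with Gp1bb also had opposite orders by TPM, but their intervals overlapped in replicate 1. The remaining 3 steps were apart in 1 library only.

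The libraries differed in the summed counts of the 10 genes, 5245 in replicate 1 and 3752 in replicate 2, or 129 and 79.6 CPM. Most of that difference lay in Itga2b alone, with 2525 and 1205 counts, or 62.0 and 25.6 CPM. For single genes the libraries were compared as the log2 ratio of counts in replicate 2 over replicate 1, after TMM scaling and with 0.5 added, over the 11901 nuclear protein-coding genes with at least 20 counts in sum. The interval printed with a ratio is an exact 95% interval that covers counting error only. Of the 9 receptor genes tested, 4 were more than 2-fold lower in replicate 2, Itga2b, Gp1bb, Clec1b and Treml1, against 11.3% of all genes tested. Gp9 alone was more than 2-fold higher, against 10.1% of all genes. The median ratio was -0.44 for the 9 and 0.017 for all genes tested.

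How much such a ratio says depends on the counts behind it. Among all genes with at least 20 but under 200 counts over both libraries, 39.4% were more than 2-fold lower and 35.6% more than 2-fold higher in replicate 2, so the ratios of Gp1ba, Gp1bb, Gp9 and Clec1b come from a range in which most genes pass. With 200 counts or more the shares were 5.64% and 4.98%. Of the 5 receptor genes in that range, Itga2b and Treml1 were more than 2-fold lower in replicate 2, and Itgb3, Gp5 and Cd9 were not.

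Itga2b was 2.43-fold lower in replicate 2 (log2 ratio -1.28, interval -1.38 to -1.18), and 2.15-fold lower when only Itga2b-201 was counted. Treml1 was 3.36-fold lower (-1.75, -2.11 to -1.41). The central 95% of genes with 200 counts or more ran from -1.49 to 1.38, so Treml1 lay outside that range and Itga2b inside it. Itgb3, at -0.44 (-0.64 to -0.25), Gp5, at -0.20 (-0.35 to -0.06), and Cd9, at -0.20 (-0.33 to -0.07), likewise had intervals below 0, which held for 40.1% of all genes tested.

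Among the genes with few counts, Gp9 was 4.80-fold higher in replicate 2 (log2 ratio 2.26, interval 1.64 to 3.0) and Gp1bb 2.22-fold lower (-1.15, -1.75 to -0.59). Gp1ba had a ratio of 0.88 (0.21 to 1.61), so 2 members had intervals above 0, which held for 42.7% of all genes tested. Clec1b was at least 10.4-fold lower in replicate 2 when its 27 counts were set against the floor of 3, and its counting interval, which also covers error in the 27, reached up to a log2 ratio of -2.98; 3.75% of all genes tested had 0 counts in replicate 2 only. Gp6, with 10 counts in sum, was not among the genes tested, and was at least 3.86-fold lower by the same floor, with a counting interval up to -1.38. The sign of the ratio was the same for each of the 10 genes under all 7 scalings tried, TMM included. Itga2b and Treml1 were past 2-fold in all 7, Clec1b and Gp9 in 6 and Gp1bb in 4.

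**Figure D3:**
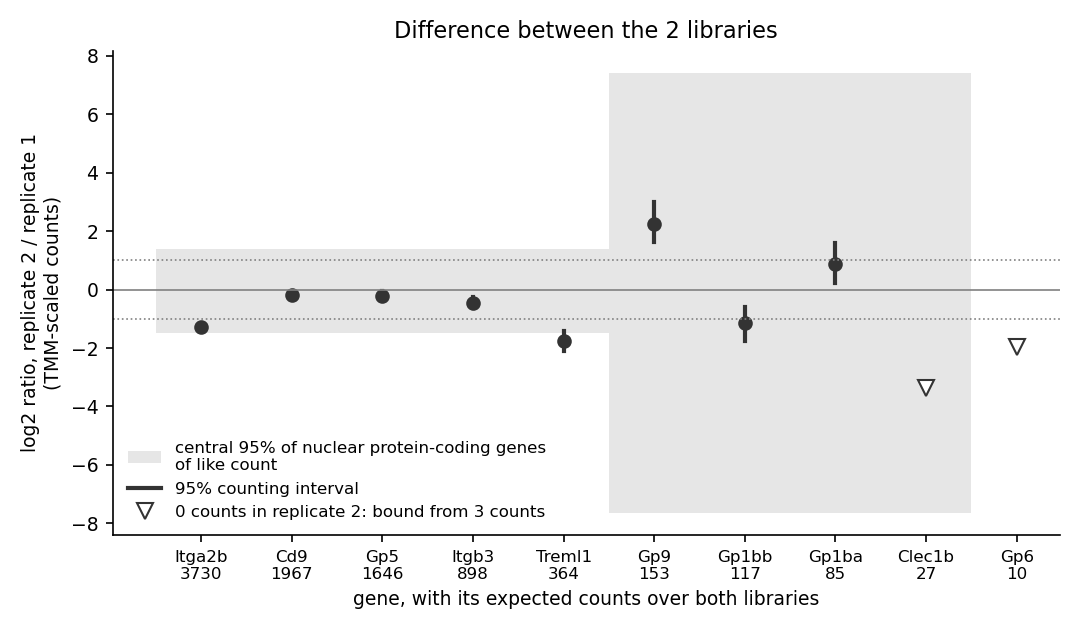
Log2 ratio of replicate 2 over replicate 1 in TMM-scaled counts for each receptor gene, ordered by its counts over both libraries (given under each name); bars are 95% counting intervals, triangles bounds from 3 counts, dotted lines 2-fold. The grey band holds the central 95% of nuclear protein-coding genes of like count, -1.49 to 1.38 on the left and -7.65 to 7.42 on the right, and Treml1 is the member outside it.

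The libraries also differed in other lists. For comparison, 11.3% of all genes tested were more than 2-fold lower in replicate 2 and 10.1% more than 2-fold higher. Genes for megakaryocyte and platelet content summed to 374 CPM in replicate 1 and 195 in replicate 2, and 6 of the 10 tested were more than 2-fold lower in replicate 2, with 0 higher. Pf4, the platelet factor 4 chemokine, stood at 23.5 and 8.71 TPM. Stem and multipotent cell markers summed to 682 and 303 CPM, with 4 of 7 tested more than 2-fold lower, Cd34 among them. Erythroid genes summed to 5248 and 6811 CPM, with 4 of 14 more than 2-fold higher in replicate 2. Mast cell, basophil and eosinophil genes summed to 25.8 and 8.43 CPM, with Mcpt8 and Mcpt4 at 0 in both libraries. In that list Cpa3, a mast cell protease, had 762 and 252 counts and Ms4a2 had 220 and 81, while Epx, of eosinophils, had 0 and 48. Genes of stroma and endothelium summed to 46.3 and 17.0 CPM, most of it from Tek, with 972 and 255 counts, and Pdgfrb, with 808 and 314, while Cxcl12 had 32 and 138 and Pdgfra, Col1a1 and Cdh5 were at 0 in both. Granulocyte and monocyte genes summed to 109 and 155 CPM and were split, with Mpo, Elane, Ctsg and Prtn3 more than 2-fold lower in replicate 2 and S100a8, S100a9, Ngp and Csf1r more than 2-fold higher, 4 and 4 of 9 tested. The part of these cell types in the receptor values was not tested.

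Most genes of the machinery that the receptors signal through were well detected. Against 39.4% of nuclear protein-coding genes, 15 of 17 receptor signalling genes reached 1 TPM or more in each library. Their highest were the filamin gene Flna, whose protein anchors GPIb alpha to actin, at 76.2 ± 5.28 (SD, n = 2), Ywhaz, a 14-3-3 adaptor that binds the same receptor tail, at 73.7 ± 20.1, and the phosphatase gene Ptpn6 at 50.5 ± 0.13. Syk, the kinase used by GPVI and CLEC-2, had a TPM of 8.57 ± 4.32. In replicate 2, Src, Lcp2 and Vav3 were more than 2-fold lower and Grap2 more than 2-fold higher, 3 and 1 of 17. Over all genes tested the shares were 11.3% and 10.1%. The median log2 ratio of the 17 was -0.26.

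The integrin activation list holds genes whose products act in or control integrin signalling, among them those that switch alphaIIb beta3 to its binding state. Of these genes, 11 of 12 were at 1 TPM or more in each library, against 39.4% of nuclear protein-coding genes. Tln1 (talin) was at 62.8 ± 25.1, Fermt3 (kindlin-3) at 49.5 ± 10.2 and Ilk at 36.3 ± 5.47 (SD, n = 2 each). Skap2 was more than 2-fold lower in replicate 2 and Parvb higher, 1 each of 12, against 11.3% and 10.1% of all genes tested. The median ratio of the 12 was -0.03.

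Of 15 other adhesion receptor genes, 7 reached 1 TPM or more in each library, against 39.4% of nuclear protein-coding genes. Highest of the 15 were Itgb1 at 41.8 ± 9.09 and the SLAM family gene Cd84 at 10.3 ± 8.49. The laminin receptor chain Itga6 followed at 9.32 ± 3.92 (SD, n = 2 each). F11r and Cd84 were more than 2-fold lower in replicate 2 and Cd226 and Esam more than 2-fold higher, 2 and 2 of the 12 tested. The shares over all genes tested were 11.3% and 10.1%. Itga2, the alpha chain of the other platelet collagen receptor, had 105 and 64 counts. Mpig6b, an inhibitory receptor of megakaryocytes, had 0 counts in both libraries. Among 11 genes for ligands, 1 reached 1 TPM or more in each, Vwf, which megakaryocytes and endothelium make, at 1.73 ± 0.40 from 582 and 757 counts. Fn1 was at 0.43 ± 0.22 and Col1a2 at 0.25 ± 0.01, and 6 ligand genes, including Fga, Fgb, Fgg and Pdpn, had 0 counts in both.

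**Figure D4:**
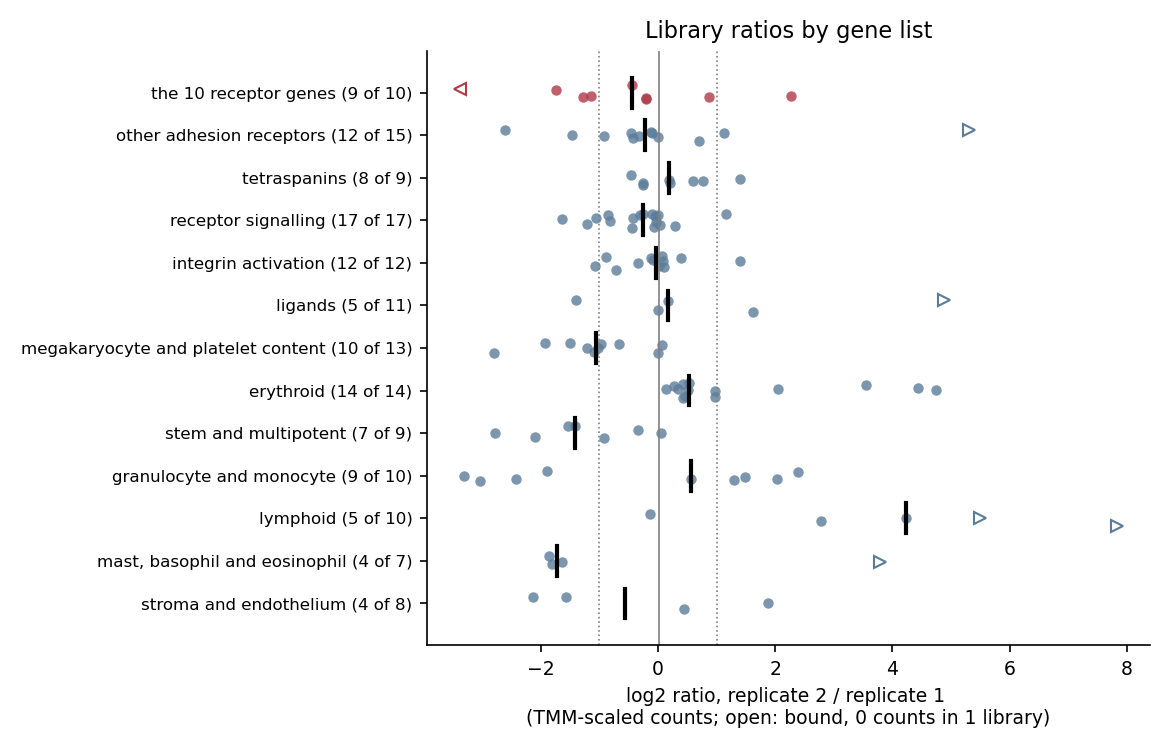
Log2 ratio of replicate 2 over replicate 1 (TMM-scaled counts) for the tested genes of each list, with tested and listed genes in parentheses; points are genes, open triangles bounds for genes with 0 counts in 1 library, black bars list medians and dotted lines 2-fold. The receptor genes have a median of -0.44, megakaryocyte and platelet content genes of -1.06, stem cell markers of -1.41 and erythroid genes of 0.52.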

How the data were processed

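Rows of 2 total RNA libraries of MEP were used. Per the labels, each was built with the ScriptSeq kit from 100 ng after removal of rRNA. The authors deposited expected counts, TPM, FPKM and bounds of a TPM interval for every gene and transcript, on mm10 and GENCODE M4 per the deposited text files. Which tool estimated the counts was not stated in these sources. The transcript tables also hold each transcript's percentage of its gene, as deposited by the authors; shares here were recomputed from TPM and counts. Symbols and coordinates came from GENCODE M21 (same assembly), by gene ID without version.

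Levels are the deposited TPM, with mean ± SD over n = 2. Library ratios used expected counts scaled by TMM (edgeR 4.0.16, R 4.3.3, counts rounded to whole numbers for the factors), 0.5 added, for nuclear protein-coding genes with at least 20 counts in sum. Counting intervals are exact Clopper-Pearson at 95%; a count of 0 was set to a floor of 3 counts. Intervals and floors cover counting error only. The script was tested on simulated data. DESeq2 1.42.0 size factors, total counts, FPKM, rescaled TPM and other filters and pseudocounts were alternatives.

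Named were all 10 genes, the 3 highest of each related list, genes of chosen pairs, genes that overlap a member and transcripts with at least 10% of a gene's TPM; other genes of the lists (Klf1, Cd34, Syk, Itga2, Mpig6b, other cell type markers with their counts and genes past 2-fold) were named after their values were seen. Members and lists were chosen with earlier results of these data known.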

Additional observations from a re-analysis of the deposited data

How the results depend on the processing

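Of 82 alternative values, 62 stayed within the spread between the libraries (for counts of genes, within 1.5 times), 15 moved further and 5 changed sign. For ratios of 2 genes and the Itga2b-201 share, the main value is a mean over both libraries. Without 1 library such a value cannot move beyond their SD, so it counts as within the spread unless its sign changes. Those entries of the tally therefore say nothing about stability. The number of receptor genes at 1 TPM or more in each library (3) became 6 when TPM was rescaled over nuclear protein-coding genes other than globins, 5 with FPKM, 5 at 0.5 TPM or more, and 8 at 10 counts in both; without 1 library it was 4. All genes moved as well: 46.2% passed after rescaling and 50.3% passed at 10 counts, against 39.4%. The median TPM of the 10 genes (0.898) became 2.34 in FPKM and 4.04 rescaled, and 0.615 to 0.86 without 1 library. Genes more than 2-fold lower in replicate 2 (4) became 2 with deposited TPM and a pseudocount of 1, and the median ratio (-0.44) became -0.80 with no filter. With deposited TPM the median log2 ratio of all genes was -0.22, against 0.017 with TMM, and 5.50% of genes were more than 2-fold lower and 1.56% higher, against 11.3% and 10.1% with TMM. Itga2b-201 held 38.4% of the gene's TPM and 82.6% of its counts on average. Leaving out 1 library, the log2 ratio of Gp9 over Gp1bb ran from -0.27 to 3.20, that of Itgav over Itga2b from -2.83 to 0.67 and that of Cd9 over Itga2b from -0.88 to 0.36. With Itga2b counted by its coding transcript, Cd9 over Itga2b was 1.13 and Itgav over Itga2b 0.31. No paired analysis was possible because the study has 1 group. Gp6, Clec1b and Gp1ba rest on few counts, 10, 27 and 85 over both libraries, and the cause of the shifts was not tested.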

Other observations

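Itgav, the alphaV chain gene, had almost the same counts in the libraries, 688 in replicate 1 and 734 in replicate 2, and a log2 ratio of -0.12 in scaled counts, while its TPM was 2.77 and 9.06. The cause was not tested. Cd226, an adhesion receptor of platelets and lymphocytes, had 0 counts in replicate 1 and 138 in replicate 2, at least 39.7-fold higher against a floor of 3 counts, and the lymphocyte genes Gzma and Cd79a likewise had 0 counts in replicate 1 and 792 and 157 in replicate 2. Whether these share a source was not tested.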
